A study of Mus musculus with 23 samples.

Results

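The libraries described here are the 3 labelled ERF knockout and the 3 labelled ERF wild type that were cultured in 2iL with RAS deleted, 6 of the 23 libraries of the series, chosen by their labels alone. All are mouse embryonic stem cells of the Raslox/lox background, so wild type and knockout alike carry null H-Ras and N-Ras alleles and the tamoxifen-inducible recombinase Ubiq-CreERT2. Both groups received 4-hydroxytamoxifen (OHT) for 6 days to delete RAS, and every library with RAS deleted had the drug, so the deletion and the drug cannot be told apart in the series. Neither group was differentiated. The medium 2iL is N2B27 with the MEK inhibitor PD0325901, the GSK3 inhibitor CHIR99021 and LIF. The groups differed in the ERF label, ERF WT or ERF KO. The labels do not say whether the knockout is a line grown from 1 clone or whether replicates are separate cultures, so p-values measure only the spread among these libraries. For comparison, 6 libraries of the same 2 ERF labels in 2iL without OHT (RAS present) and 6 with RAS deleted that spent 48 hours in FA (FGF2 plus Activin A, on fibronectin) were used. Neither set of 6 shares a library with the 6 described. Libraries of the same ERF label and replicate number deviated together across RAS states, and less clearly across media, so the sets are not independent.

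RAS proteins are small GTPases that pass signals from receptors such as the FGF receptors to the kinases RAF, MEK and ERK. ERF is a repressor of the ETS family of transcription factors; phosphorylation by ERK sends it out of the nucleus, so ERF is known as a nuclear repressor of ETS target genes when ERK is quiet. Embryonic stem cells in 2iL are held in the naive state of the early epiblast, in which ERK signalling is blocked, and on release they pass through rosette and formative stages marked by factors such as OTX2. By design the 6 libraries combine the RAS deletion with the MEK inhibitor, and the comparison asks what the ERF label changed in that setting; pathway activity was not measured.

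Expression was measured as counts of rRNA-depleted total RNA per gene, given here as CPM, counts relative to a library total that TMM scales so that libraries are alike over the bulk of genes. Total counts of the 6 libraries were 16.2 to 21.1 M, and the predicted gene Gm26917 took 24.9 to 27.9% of each. Calls come from edgeR's quasi-likelihood test in a model of all 23 libraries and needed at least 2-fold change together with a p below 0.05 after Benjamini-Hochberg adjustment; rose and fell are used for called genes. Errors on a log2 fold change (labelled knockout minus wild type) are standard errors of that fit, with n = 3 libraries against 3. Markers of naive embryonic stem cells (Pou5f1, Sox2, Nanog, Esrrb, Tfcp2l1, Klf4 and Zfp42) summed to 3390 to 3490 CPM with ERF wild type and to 3350 to 3674 CPM in the libraries labelled knockout, and all 7 were present in both. Replicate 1 of the wild-type group stood apart on chromosome 8: the median gene there was 0.21 log2 units above the wild-type mean in that library, against -0.11 and -0.09 in the other two wild-type libraries and -0.12 to -0.08 in those labelled knockout. On the other autosomes and X these medians lay between -0.06 and 0.11 in every library. The cause was not tested, and values without that library are given where they matter.

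**Figure D1:**
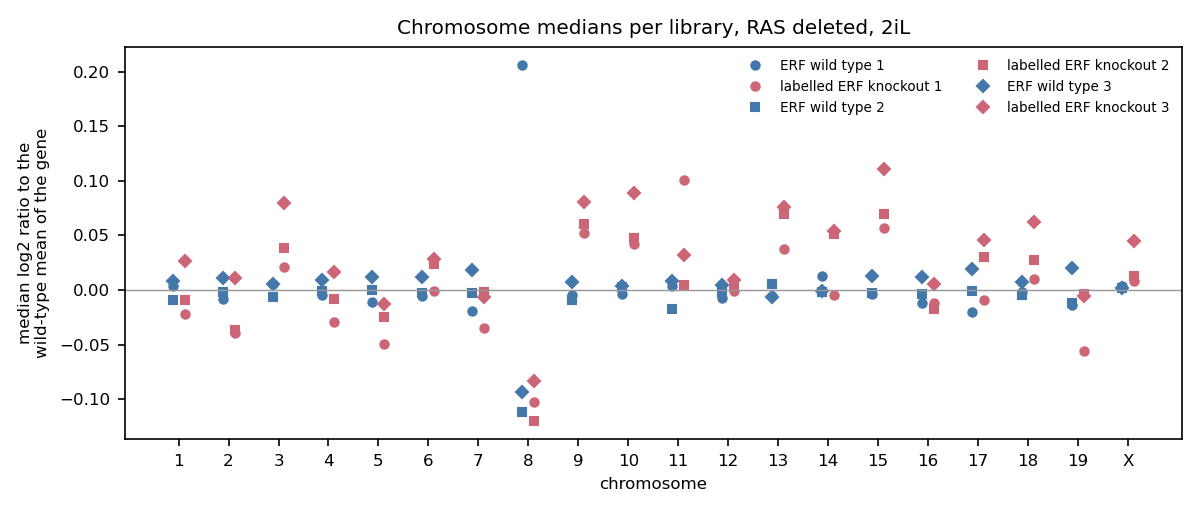
Median log2 ratio of the genes of each chromosome to the wild-type mean of the same gene, on the log2(CPM + 1) scale over genes with at least 5 CPM, for the 6 libraries (blue, ERF wild type; red, labelled ERF knockout; circles, squares and diamonds are replicates 1, 2 and 3). Replicate 1 of the wild-type group lies at 0.21 on chromosome 8, apart from the other 5 libraries.

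The targeted genes were read first. Erf itself was not lower in the libraries labelled knockout: it stood at 90.2, 83.0 and 90.1 CPM with ERF wild type and at 172, 153 and 129.8 CPM in those labelled knockout, a log2 fold change of 0.79 ± 0.13 (edgeR adjusted p = 6.89e-05). The groups did not overlap, as for 53.2% of all tested genes, and the labelled knockout was the higher. The counts do not show which part of the gene was read, so the level of Erf RNA does not check the label, and the text keeps to "labelled knockout". Hras, one of the genes whose null alleles all 6 libraries carry, was 13.6, 14.1 and 12.7 CPM and 12.8, 11.98 and 12.7 CPM. Nras was 41.2, 38.1 and 38.3 CPM in the wild-type libraries and 52.3, 5.32 and 34.8 CPM in the labelled knockout libraries. Replicate 2 of the labelled knockout was thus the lowest of the 6 for Nras, and the groups overlapped. With RAS present the labelled knockout was at 43.6, 7.74 and 30.8 CPM, replicate 2 again being the lowest, so the low value goes with the replicate number and not with 1 library.

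Of 20372 genes tested, 2644 (13%) were called, 1188 higher (5.83%) and 1456 lower (7.15%) in the libraries labelled knockout. The median log2 fold change over all tested genes was -0.01. Changes of at least 4-fold were called for 380 genes upward and 539 downward, and of at least 16-fold for 53 and 111. The CPM ranges of the groups did not overlap for 10843 genes (53.2%) and for 2577 of the called genes. Leaving out each of the 6 libraries in turn gave 2305 to 2620 calls and kept 81.4 to 87.6% of the calls made with all libraries, and leaving out genes of chromosome 8 gave 2503. By chromosome, the share of tested genes called was lowest on chromosome 12 (11.2%) and highest on X (17.6%).

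The deepest falls included the germline and early-embryo gene Dppa3 and an X-linked gene family. Dppa3, also called Stella, a maternal factor that protects the early embryo's DNA methylation, was 47.2, 54.0 and 52.4 CPM with ERF wild type and 2.10, 0.896 and 1.15 CPM in the labelled knockout, a log2 fold change of -5.20 ± 0.27 (adjusted p = 5.06e-11). Lrrc15, a leucine-rich repeat membrane protein, went from 10, 10.4 and 11.8 CPM to 0.284, 0.336 and 0.0674 CPM (-5.46 ± 0.35). Prrt3, a proline-rich transmembrane protein, went from 24.2, 19.7 and 22.6 CPM to 1.195, 1.40 and 1.28 CPM (-4.09 ± 0.18, adjusted p = 4.23e-13). Pdzrn4, which carries PDZ and RING domains, had 336 counts over the 3 wild-type libraries and 3 counts over the 3 labelled knockout libraries, a depth-scaled ratio of 95.5 with a 95% exact counting interval from 32.4 to 465.2. Others of the 12 largest falls were Sstr5 (a somatostatin receptor, -4.88), Spic (an ETS-family factor, -4.17), Slc5a1 (a sodium-glucose transporter, -3.84) and Pramel6 and Pramel7 (naive-state genes of the PRAME-like family, -5.20 and -4.30). Spic was 18.8, 14.4 and 14.6 CPM in wild type and 0.626, 1.12 and 0.876 CPM in the labelled knockout. Pramel6 and Pramel7 have close paralogs, among which reads may be shared, so their own levels are uncertain. Of 10 tested Pramel and Pramef genes, 3 fell (7.15% of all genes), none rose and the median was -0.12; this family was picked from its values.

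All tested members of the Xlr family fell. The family, expressed in lymphoid and germ cells and encoded on the X chromosome, where 9 of the members lie close together and Xlr lies apart, had 10 tested members; all 10 were called lower, against 7.15% of all genes, with a median log2 fold change of -3.50 and a range from -4.56 (Xlr5a) to -1.30 (Xlr). The family was followed because 3 of its members were among the 12 largest falls, so its count is a description. Members are close paralogs among which reads may be shared, so their values are uncertain and may not be independent. Xlr3a was 35.4, 38.4 and 35.1 CPM with ERF wild type and 3.87, 2.41 and 3.44 CPM in the labelled knockout. Xlr4a was 6.94, 8.12 and 8.08 CPM and 0.626, 0.112 and 0.404 CPM (-4.33 ± 0.43, adjusted p = 9.08e-08), and Xlr5a was 7.53, 3.85 and 5.86 CPM and 0.341, 0.336 and 0 CPM (-4.56 ± 0.60, adjusted p = 7.13e-06). All 10 members were also called lower with RAS present in 2iL, at log2 fold changes from -3.69 to -1.02.

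ETS factors bind DNA around a GGAA core. Of the 24 genes with the largest rises and falls, 18 have an entry in the RefSeq promoter table. Xlr4a, Xlr4c and Xlr5a held a match to the 7-letter ETS sequence CCGGAAG (or CTTCCGG, its other strand) and the other 15 did not, so promoters of this family are shown. Tagln, Spry4, Myrf, Trf, Dppa3 and Sstr5 were not searched. The sequences below are the 250 bases before the start site, read 5′ to 3′ on the gene's strand (minus), from RefSeq on GRCm38.p6, with matched letters in capitals.
Xlr4a, chrX:73082508-73082757: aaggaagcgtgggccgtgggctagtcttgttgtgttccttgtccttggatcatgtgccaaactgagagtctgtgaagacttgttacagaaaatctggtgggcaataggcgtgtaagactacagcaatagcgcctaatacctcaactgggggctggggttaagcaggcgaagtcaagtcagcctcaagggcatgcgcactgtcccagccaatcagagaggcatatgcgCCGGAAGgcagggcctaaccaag
Xlr5a, chrX:73117703-73117952: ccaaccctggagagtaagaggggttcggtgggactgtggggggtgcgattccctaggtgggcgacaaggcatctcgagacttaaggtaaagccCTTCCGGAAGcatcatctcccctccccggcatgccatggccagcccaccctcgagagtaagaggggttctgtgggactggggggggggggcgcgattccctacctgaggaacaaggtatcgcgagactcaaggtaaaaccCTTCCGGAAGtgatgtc
In Xlr5a the capitals hold 4 matches, which overlap as 2 palindromes of both strands. Of the 10 family promoters in the table, which run from 250 bases before to 50 after the start site, 5 held a match: those of Xlr4a, Xlr4b, Xlr4c, Xlr5a and Xlr5b. Those of Xlr, Xlr3a, Xlr3b, Xlr3c and Xlr5c held none, and these genes fell too. Among all 32851 promoters listed there, 8.86% held a match, and among those of tested genes 14.9% did. Entries exist for 63.1% of the tested genes (65.2% of those called higher and 63.0% of those called lower), and the rest were not searched. A match was held by 7.78% of promoters of genes called higher, 5.62% of those called lower and 16.2% of those of tested genes not called. These shares are a description, and no difference between them was tested. Promoters of the Xlr family were shown because matches were seen, and its members are close paralogs, so its 5 of 10 does not stand for called genes. A match is a description of letters and not evidence of binding.

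**Figure D2:**
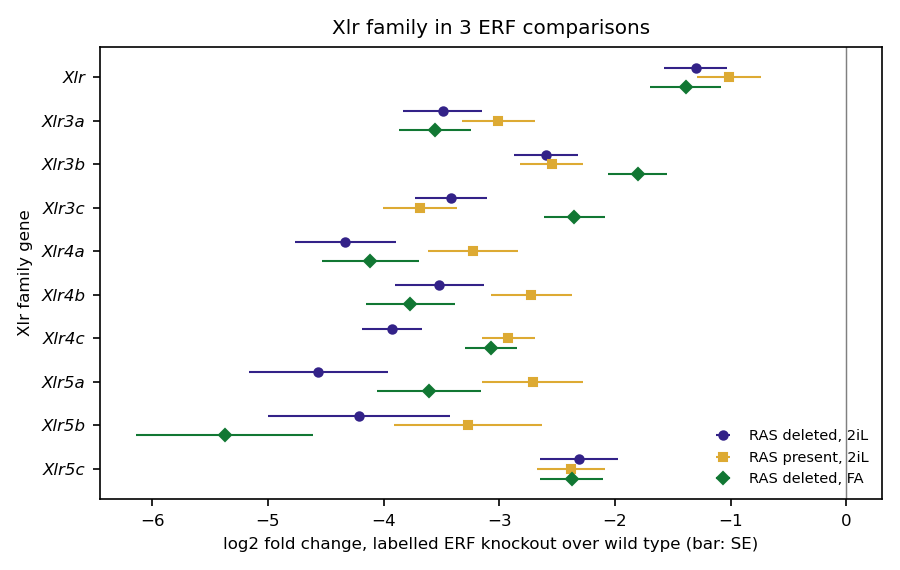
Fitted log2 fold change (labelled ERF knockout over wild type, bars are SE) of the 10 tested Xlr genes in RAS-deleted 2iL (circles), RAS-present 2iL (squares) and RAS-deleted FA (diamonds), comparisons that share no library with the first. All 10 lie below 0 in all 3 comparisons.

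The steepest rises were spread over several roles. Adam23, a membrane protein of the ADAM family that binds integrins, was 0.860, 0.558 and 1.06 CPM with ERF wild type and 29.8, 24.9 and 35.2 CPM in the labelled knockout, a log2 fold change of 5.16 ± 0.35 (adjusted p = 3.09e-09). Fignl2 (fidgetin-like) went from 2.37, 1.52 and 2.18 CPM to 25.2, 27.1 and 29.1 CPM, and Slco4a1, an organic anion transporter, from 1.02, 1.57 and 1.11 CPM to 14.8, 18.98 and 21.8 CPM. The largest rises and falls were chosen among genes whose groups do not overlap, so their separation is no finding. The other genes of the 12 largest rises were Trh (thyrotropin-releasing hormone, 5.005), Tagln (transgelin, 4.71), Spry4 (4.68), Matn3 (matrilin, 4.18), Tgfbi (a matrix protein, 4.05), Myrf (a membrane-bound transcription factor, 3.97), Igsf21 (3.77), Nt5e (the ecto-nucleotidase CD73, 3.67) and Trf (transferrin, 3.54). Tagln rested on uneven libraries, at 1.54, 6.33 and 10.1 CPM in the labelled knockout against 0.215, 0.152 and 0.290 CPM in wild type.

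Among abundant genes the largest gain in CPM was in Txnip, a thioredoxin-binding brake on glucose uptake, at 180.1, 143 and 158 CPM and 648, 767 and 649.7 CPM (2.10 ± 0.32). The others of the 8 largest gains, in order, were the lipid carrier Apoe, the histone genes Hist1h2bq and Hist1h3e, Tdgf1 (Cripto, the Nodal co-receptor), the histone gene Hist1h2ap, the KRAB zinc finger gene Zfp57, which guards imprints, and Spp1 (osteopontin). Histone genes have close copies among which reads may be shared. Zfp57 was 260.1, 282 and 273 CPM and 569, 571 and 577 CPM. The largest losses in CPM were in the chaperone gene Hspa8 (834, 997 and 869 CPM against 389.9, 342 and 352 CPM, -1.32 ± 0.13), the fatty acid synthase gene Fasn, the large ubiquitin ligase gene Rnf213 (399, 389 and 390.5 CPM against 64.6, 83.0 and 68.0 CPM, -2.45 ± 0.14), Olfr1459, the chromatin remodeller gene Srcap, the tubulin gene Tubb4b, the replication gene Ticrr and the creatine kinase gene Ckb. The groups did not overlap in the 16 genes, which is also so for 2577 of the 2644 called genes.

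**Figure D3:**
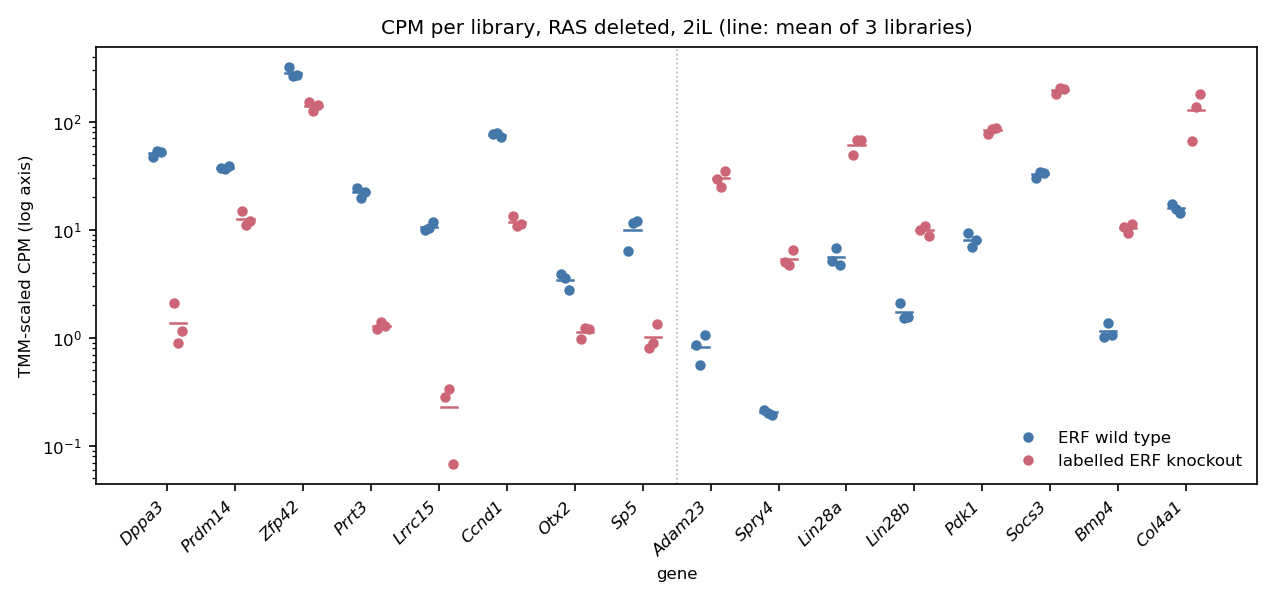
TMM-scaled CPM on a log axis of 16 genes in the 3 wild-type (blue) and 3 labelled ERF knockout (red) libraries with RAS deleted in 2iL, with the mean of each group as a line. The 8 genes on the left fell and the 8 on the right rose; the groups do not overlap, as for 2577 of the 2644 called genes.

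Of 16 naive pluripotency genes tested, 5 fell, against 7.15% of all genes, none rose, against 5.83%, and the median was -0.43. Beside Dppa3, the falls were Prdm14, a repressor that keeps DNA methylation and FGF signalling low in naive cells (37.0, 36.2 and 39.2 CPM against 14.8, 11.1 and 11.9 CPM, -1.57 ± 0.18, adjusted p = 1.04e-06), Nr5a2, a nuclear receptor that sustains Pou5f1 (73.2, 86.9 and 81.3 CPM against 40.4, 36.0 and 39.0 CPM, -1.06), Tcl1, an AKT co-activator (-1.10), and Zfp42, also called Rex1 (322, 263 and 271 CPM against 153, 125 and 143 CPM, -1.03). In these genes all labelled knockout libraries were below all wild-type ones; such separation held for 2577 of the 2644 called genes. Zfp42 lies on chromosome 8 and was -0.92 without wild-type replicate 1 and -0.95 without labelled knockout replicate 2, and Tcl1 was -0.97 without labelled knockout replicate 1, all short of the 2-fold minimum. The core factors of the list were not called: Klf4 was 0.47, Klf5 0.53, Esrrb 0.52, Tfcp2l1 0.02 and Nanog -0.57. Esrrb stood at 377, 387 and 441 CPM with ERF wild type and at 541, 586 and 595 CPM in the labelled knockout. Among 9 general pluripotency genes only Tdgf1 was called (13% of all genes), at 119, 102 and 122.6 CPM against 428, 434 and 441 CPM (1.92 ± 0.13), while Pou5f1 was 0.40 and Sox2 -0.13.

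More formative and primed epiblast genes fell than rose, with 5 of 15 called lower (7.15% of all genes), 2 higher (5.83%) and a median of -0.999. Otx2, a homeobox factor that starts the exit from the naive state, was 3.92, 3.55 and 2.76 CPM with ERF wild type and 0.967, 1.23 and 1.21 CPM in the labelled knockout (-1.58 ± 0.30, adjusted p = 0.000231). Foxd3, a forkhead factor of the epiblast, was 34.2, 35.0 and 37.9 CPM and 14.2, 11.3 and 16.9 CPM (-1.35 ± 0.16), and the zinc finger gene Zic2 was 34.2, 34.3 and 35.4 CPM and 17.4, 14.7 and 17.1 CPM (-1.08 ± 0.12). The epithelial factor Grhl2 fell by 1.23 and Sall2 fell by 1.06 on the log2 scale; Sall2 missed the 2-fold minimum without wild-type replicate 1 (-0.997) or labelled knockout replicate 2 (-0.958). Against them, Utf1, a chromatin factor of pluripotent cells, rose from 27.9, 25.5 and 27.1 CPM to 76.5, 70.4 and 79.4 CPM (1.49 ± 0.11), and Sox3 rose by 1.07, a call lost without wild-type replicate 3 (0.91) and without labelled knockout replicate 1 (0.999) or 2 (0.90). Fgf5, the classical primed marker, was not called (-2.28, adjusted p = 0.631), nor were Dnmt3a and Dnmt3b. The epiblast-like markers Fgf5, Otx2, Pou3f1 and Dnmt3b summed to 51.24 to 63.7 CPM with ERF wild type and to 43.1 to 51.15 CPM in the labelled knockout.

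Of the Lin28 and let-7 axis, 3 of 10 genes rose (5.83% of all genes) and none fell (7.15%). LIN28 proteins block maturation of let-7 microRNAs and mark the step out of naive pluripotency. Lin28a was 5.11, 6.80 and 4.74 CPM in wild type and 49.2, 67.2 and 67.3 CPM in the labelled knockout, a log2 fold change of 3.46 ± 0.38 (adjusted p = 2.45e-06). Lin28b was 2.10, 1.52 and 1.55 CPM and 10.02, 10.9 and 8.83 CPM (2.53 ± 0.21), and Dis3l2, the nuclease that degrades uridylated pre-let-7, was 19.03, 16.7 and 18.8 CPM and 35.1, 40.9 and 38.1 CPM (1.06 ± 0.11). The groups were apart in all 3, as in 2577 of the 2644 called genes. The other 7 listed genes, among them the uridylases Tut4 and Tut7 and the let-7 target Hmga2, were not called, and the median was 0.20.

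Genes that respond to ERK were called in both directions, 2 higher (5.83% of all genes) and 4 lower (7.15%) of 20, with a median of 0.02. Spry4, a feedback inhibitor of receptor tyrosine kinases, was 0.215, 0.203 and 0.194 CPM with ERF wild type and 5.01, 4.70 and 6.47 CPM in the labelled knockout (4.68 ± 0.35, adjusted p = 5.94e-10), and the immediate early gene Fos was 1.18, 1.73 and 1.50 CPM and 3.36, 4.14 and 3.84 CPM (1.36 ± 0.23). In the other direction, cyclin D1 (Ccnd1) was 76.6, 79.0 and 72.9 CPM and 13.4, 10.8 and 11.3 CPM (-2.68 ± 0.32, adjusted p = 5.47e-06), and Etv1, an activating ETS factor, was 10.97, 21 and 20.7 CPM and 4.21, 3.86 and 4.65 CPM (-2.06 ± 0.36). In these 4 genes the groups did not overlap, as in 2577 of the 2644 called genes. The related factor Etv4 and the phosphatase gene Dusp5 fell by 1.05 and by 1.12 on the log2 scale. Etv4 missed the 2-fold minimum without wild-type replicate 3 (-0.96), without labelled knockout replicate 2 (-0.91) and with effective-length offsets (-0.99), and Dusp5 without wild-type replicate 1 or labelled knockout replicate 3 (-0.97 each). Dusp6, Egr1, Spred2 and Etv5 were not called, at 0.38, 0.04, 0.00 and -0.42; Spry2 was 0.94 (adjusted p = 1.06e-05), short of 2-fold. Under DESeq2 the number of ERK response genes called higher was 4.

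Of an ETS list that leaves out Spic and the ERK-responsive Etv1, Etv4 and Etv5, given above, 16 of 18 genes were tested. Of these 1 rose, against 5.83% of all genes, and 2 fell, against 7.15%. The median was -0.41 (-0.34 with Ehf, at 0 in the labelled knockout, set at its 3-count bound and Fli1, at 0 in both groups, left out). Elf3, an epithelial ETS activator, was 125, 139 and 136 CPM and 52.5, 51.7 and 54.1 CPM (-1.34 ± 0.12, adjusted p = 3.06e-08). Elk3, a repressor of the ternary complex factor group, was 7.53, 7.05 and 6.39 CPM and 16.1, 15.1 and 17.4 CPM (1.21 ± 0.19). Etv2 fell from under 1 CPM (0.645, 0.355 and 0.581 CPM against 0.341, 0.224 and 0.135 CPM) and was not called by DESeq2 or when wild-type replicate 1 or 3 or labelled knockout replicate 2 or 3 was left out (adjusted p from 0.106 to 0.157). Etv3, the closest relative of ERF, was not called (-0.52). Of FGF ligands and receptors, 1 of 16 rose, namely Fgf17 (0.215, 0.304 and 0.678 CPM against 3.98, 3.42 and 4.51 CPM), and 2 fell, Fgf3 (-1.36) and Fgfr2 (-1.76), counts near the shares over all genes (5.83% and 7.15%). Fgf4, the main FGF of these cells, was not called (-0.36).

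Target genes of the other 2iL components were called too. Of 13 Wnt target genes, which the GSK3 inhibitor keeps active, 6 fell (7.15% of all genes) and none rose, with a median of -1.12. Sp5, a zinc finger factor directly induced by beta-catenin, was 6.34, 11.6 and 12.2 CPM and 0.797, 0.896 and 1.35 CPM (-3.32 ± 0.46, adjusted p = 7.97e-06). Notum, a secreted Wnt deacylase, was 15.5, 16.8 and 19.9 CPM and 4.15, 2.97 and 2.76 CPM (-2.40 ± 0.25), and Tnfrsf19, also called Troy, was 27.2, 34.0 and 36.1 CPM and 7.40, 7.17 and 6.13 CPM (-2.23 ± 0.20). Wild-type libraries were above labelled knockout libraries throughout, and the groups were apart in 2577 of the 2644 called genes. Axin2 (-1.12), Cdx1 (-1.41) and T (-2.51, under 1 CPM in every library) were the other calls; T was 0.96 and not called with RAS present, and its call was lost with effective-length offsets (-0.94, adjusted p = 0.429). The LIF and STAT3 list went the other way: 4 of 12 rose (5.83% of all genes), none fell and the median was 0.48. Socs3, the feedback inhibitor of JAK and STAT3, was 30.3, 34.2 and 33.7 CPM and 181, 205 and 200.3 CPM (2.58 ± 0.17, adjusted p = 1.62e-09), the LIF receptor gene Lifr was 48.4, 56.7 and 57.2 CPM and 106, 121 and 124 CPM (1.11 ± 0.13), and the kinase gene Pim3 and the AP-1 gene Junb rose by 1.08 and 1.30. Junb lies on chromosome 8 and was 1.40 without wild-type replicate 1.

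Bmp4, a ligand that induces Id genes, was 1.02, 1.37 and 1.06 CPM with ERF wild type and 10.6, 9.41 and 11.2 CPM in the labelled knockout (3.17 ± 0.24, adjusted p = 9.26e-10). Its target Id1, an inhibitor of basic helix-loop-helix factors, was 0.323, 0.355 and 0.436 CPM and 1.88, 2.30 and 2.49 CPM (2.56 ± 0.39), while Id2 fell from 8.98, 9.69 and 8.86 CPM to 4.38, 3.98 and 3.91 CPM (-1.16 ± 0.17) and Id3 was not called (0.52). In all, 3 of 15 rose (5.83% of all genes) and 1 fell, near the 7.15% of all genes; the other rise, Bmp2, was near or under 1 CPM in every library and was not called without wild-type replicate 2 or 3 or labelled knockout replicate 1 or 3 (adjusted p from 0.0534 to 0.111). Of 14 Nodal and Activin genes, a list without the co-receptor gene Tdgf1, which rose as given above, 0 were called (13% of all genes) by edgeR and 0 by DESeq2, although 6 had an unadjusted p and 5 an adjusted p under 0.05 in edgeR. Nodal itself was at -0.999 ± 0.13 (adjusted p = 5.3e-06), just short of 2-fold, and was called with effective-length offsets (-1.01) and without wild-type replicate 1 (-1.06) or labelled knockout replicate 1 (-1.06) or 3 (-1.02).

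Some basement membrane genes, which primitive endoderm secretes in quantity and epiblast also makes, rose. Col4a1, a chain of type IV collagen, was 17.3, 15.7 and 14.4 CPM in wild type and 66.2, 137 and 180.4 CPM in the labelled knockout (3.02 ± 0.50, adjusted p = 0.000166), and its partner Col4a2 was 14.4, 13.8 and 11.5 CPM and 38.6, 81.8 and 110.3 CPM (2.54 ± 0.49). Both lie on chromosome 8 and were 3.10 and 2.61 without wild-type replicate 1. Lamb1, a laminin chain, was 34.8, 41.6 and 39.0 CPM and 98.4, 138 and 144 CPM (1.72 ± 0.23). In all 3 genes the labelled knockout libraries were above the wild-type ones, and groups were apart in 2577 of the 2644 called genes. The labelled knockout libraries were uneven among themselves, replicate 1 being lowest. Lama1 was 73.4, 82.6 and 82.2 CPM and 111, 173 and 221 CPM, a call lost when any library other than labelled knockout replicate 1 was left out (adjusted p from 0.0622 to 0.118). Of 18 matrix and integrin genes these 4 were the only calls, against 5.83% of all genes called higher and 7.15% called lower. On the primitive and visceral endoderm list, 6 of 14 rose (5.83% of all genes) and none fell, with a median of 1.40: Col4a1, Lamb1, Lama1, Apoe, Hnf4a (1.91) and Cubn (3.25), the last lost in the same way. With RAS present 10 of the 14 rose (5.20% of all genes), these 6 among them, and none fell, with a median of 2.17. The defining factors were not called with RAS deleted, Gata4 at 0.52 and Gata6 at 0.36, and Afp was at 0. Endoderm markers summed to 9.39 to 15.4 CPM with ERF wild type and to 15.7 to 22.2 CPM in the labelled knockout, so the groups did not overlap; whether a small share of such cells contributed was not tested, and in bulk RNA more cells of a type and more RNA per cell cannot be told apart.

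Other lineage lists held calls in both directions, to be read against the 5.83% of all genes called higher and 7.15% called lower. Of 15 trophoblast genes, the keratins Krt8 (4.25, 2.59 and 1.84 CPM against 10.9, 15.4 and 14.8 CPM), Krt18 and Krt19 rose, and Gata3 (3.60, 3.50 and 2.76 CPM against 0.114, 0.0560 and 0.135 CPM, -4.97 ± 0.37), Cdx2 (-4.03) and Tfap2c (97.0, 107 and 112 CPM against 49.5, 44.8 and 47.98 CPM, -1.15 ± 0.14) fell. The summed trophoblast markers were 6.72 to 8.12 CPM in wild type and 1.75 to 3.81 CPM in the labelled knockout, with Plac1 at 0. Among 10 neural genes, Sox1, the first marker of neural fate, rose from 3.98, 5.12 and 4.94 CPM to 15.8, 13.7 and 16.98 CPM (1.72 ± 0.17), Map2 rose, Lhx2 fell and the neuronal tubulin gene Tubb3 fell from 10.97, 11.8 and 11.2 CPM to 1.59, 2.52 and 2.76 CPM (-2.31 ± 0.24). Sox1 and Tubb3 lie on chromosome 8 and were 1.64 and -2.32 without wild-type replicate 1. The summed neural markers were 48.2 to 68.7 CPM in wild type and 38.2 to 40.15 CPM in the labelled knockout, lower although Sox1 rose. The Map2 call was lost with effective-length offsets (adjusted p = 0.0572), and that of Lhx2 with them (adjusted p = 0.0653) and without wild-type replicate 1 (-0.89) or labelled knockout replicate 2 (-0.99) or 3 (-0.88). Lhx2 was also short of 2-fold in a fit of the 6 libraries alone (-0.998). In the mesoderm and definitive endoderm list, Gsc fell from 11.1, 11.3 and 7.99 CPM to 2.16, 2.02 and 1.75 CPM (-2.35 ± 0.26), and Cdx1, T, Mixl1 and Foxa2 were the other calls, the last a rise. Mixl1 and Foxa2 were near or under 1 CPM in every library and lost their calls under 5 and 6 of the alternatives, at adjusted p up to 0.0919 and 0.134. Fibroblast markers summed to 4.36 to 5.54 CPM and 3.91 to 6.61 CPM, with Dcn and Postn at 0. Of 8 fibroblast genes tested, Thy1 (1.44) and Tagln rose and Col1a1 (-1.01) fell. Col1a1 was short of 2-fold without wild-type replicate 1 or 2 or labelled knockout replicate 3 (-0.99 to -0.84) and in a fit of the 6 libraries alone (-0.99).

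**Figure D4:**
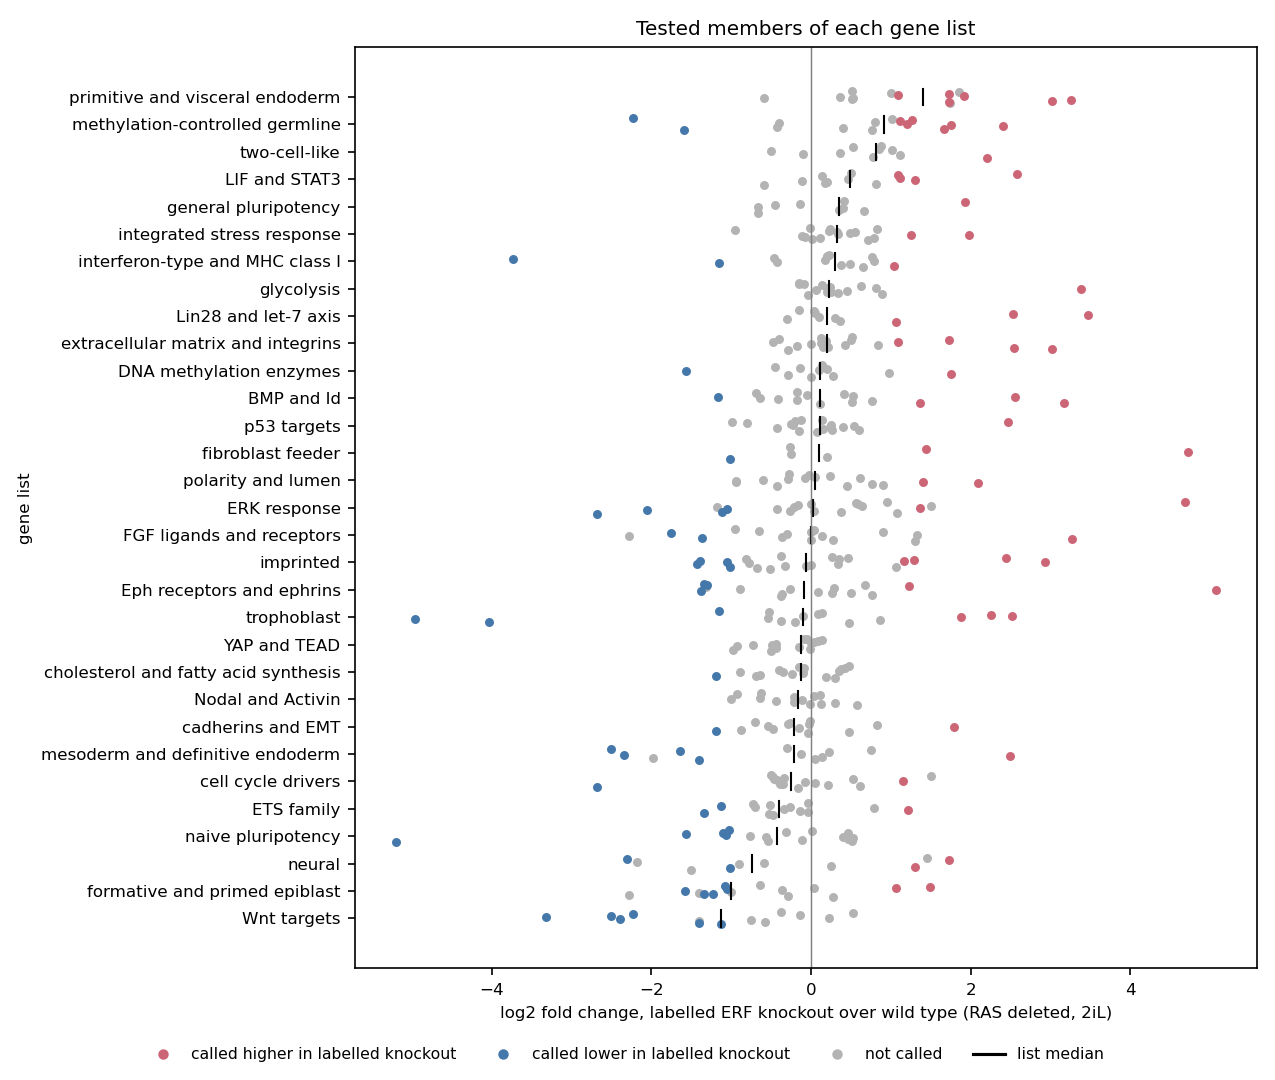
Fitted log2 fold change (labelled ERF knockout over wild type, RAS deleted, 2iL) of the tested members of 31 gene lists, coloured by call, with the list median as a bar. The 7 genes with 0 counts in all libraries of a group (Acta2, Ankrd1, Cldn2, Dcn, Ehf, Fli1 and Gbp2) are not drawn but count in the medians, which run from -1.12 for Wnt targets to 1.40 for primitive and visceral endoderm.

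Among 12 genes of DNA methylation 1 rose, against 5.83% of all genes, and 1 fell, against 7.15%. Dnmt3l, the catalytically inactive partner of the de novo methyltransferases, rose from 4.46, 4.26 and 3.48 CPM to 10.4, 13.9 and 17.1 CPM (1.75 ± 0.33), and Prdm14 fell. Dnmt1, Uhrf1 and Tet1 were not called. Of 14 germline genes that promoter methylation is known to silence, 6 rose (5.83% of all genes) and 2 fell (7.15%), with a median of 0.91. The rises were 4 without labelled knockout replicate 2, where Sycp3 was 0.94 and Slc25a31 had an adjusted p of 0.0633; Slc25a31 was also not called without labelled knockout replicate 1 or any of the 3 wild-type replicates. The piRNA-pathway gene Mael was 1.94, 2.18 and 1.65 CPM and 10.8, 11.3 and 8.22 CPM (2.40 ± 0.29, adjusted p = 1.63e-06), and the germ-cell helicase gene Ddx4 was 3.44, 4.82 and 3.92 CPM and 14.2, 12.7 and 11.8 CPM (1.67 ± 0.19). Mov10l1 rose by 1.75, but Dazl, a translational regulator of germ cells and the most abundant of the list in CPM, fell from 89.7, 99.0 and 80.2 CPM to 33.5, 29.5 and 26.3 CPM (-1.59 ± 0.20). Of 21 imprinted genes, 4 rose (Nnat, 2.93; Sgce, 2.44; Phlda2, 1.29; Peg10, 1.17), against 5.83% of all genes, and 4 fell, against 7.15% (Kcnq1ot1, Peg3, Mirg and Grb10). Peg3 was 102, 123.1 and 104 CPM and 39.4, 42.4 and 44.1 CPM, and Kcnq1ot1 was 138, 154 and 139.8 CPM and 59.2, 49.3 and 52.3 CPM. Without labelled knockout replicate 3 Peg10 was 0.99, and without wild-type replicate 3 or labelled knockout replicate 2 neither Mirg (-0.95 and -0.99) nor Grb10 (-0.76 and -0.90) was called. Grb10 was also short of 2-fold in a fit of the 6 libraries alone (-0.998). Of 10 two-cell-like genes tested 1 was called (13% of all genes), Duxf3 (2.21). The summed two-cell-like markers were 31.4 to 44.4 CPM with ERF wild type and 30.7 to 90.0 CPM in the labelled knockout.

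The remaining lists are given by gene, to be read against the 13% of all genes called; the glycolysis, YAP, p53, stress, polarity, cell cycle and lipid synthesis lists were at or under that share. Pdk1, the kinase that shuts pyruvate dehydrogenase, was the only call of 16 glycolysis genes, at 9.25, 6.90 and 8.03 CPM against 76.8, 86.5 and 87.8 CPM (3.38 ± 0.14, adjusted p = 3.25e-13). Epha1, an ephrin receptor, was 0.107, 0.102 and 0.0968 CPM and 2.96, 4.09 and 3.77 CPM (5.07 ± 0.31), a rise from about the level of 2 counts a library, and among 16 Eph genes Ephb2 also rose (16.6, 14.7 and 18.3 CPM against 38.8, 37.8 and 39.4 CPM) while Ephb4 (70.6, 77.1 and 85.8 CPM against 30.8, 30.1 and 33.4 CPM), Ephb6 and Efnb3 fell. Pmaip1, the pro-apoptotic gene Noxa, was the only call of 18 p53 targets (10.8, 7.25 and 9.15 CPM against 47.5, 49.1 and 53.6 CPM, 2.47 ± 0.20). In each of these the groups were apart, as in 2577 of the 2644 called genes. Ankrd1, a YAP target, had 0 counts in all 3 wild-type libraries and 151 over the labelled knockout libraries, at least 59.1-fold higher against a floor of 3 counts over the group; the established YAP targets Ctgf and Cyr61 were -0.92 and -0.73 and not called. The stress genes Ddit3 (1.98) and Chac1 (1.25) were the calls of 17 in that list. Among 16 cell cycle genes, with a median of -0.26, Cdk6 (21.5, 21.7 and 21.1 CPM against 42.6, 47.9 and 52.8 CPM) rose and Ccnd1 (-2.68) fell. The tight-junction gene Cldn7 (2.09) and the polarity gene Crb3 (1.41) rose among 17 polarity genes, and Fasn (-1.19) was the only call of 16 lipid synthesis genes. Of 14 interferon-type and MHC class I genes, Oasl2 (51 counts over the wild-type libraries against 3) and Ifitm1 (-1.16) fell and Bst2 (1.04) rose, the last short of 2-fold without wild-type replicate 2 or 3 or labelled knockout replicate 2 or 3 (0.94 to 0.98). Of 14 cadherin and EMT genes, Esrp1 (1.79) rose and Cdh2 (-1.195) fell. Without wild-type replicate 2 or 3 or labelled knockout replicate 2 neither was called (adjusted p from 0.0558 to 0.193), nor was Cdh2 without labelled knockout replicate 1 (adjusted p = 0.0658). The epithelial cadherin gene Cdh1 was not called (-0.03).

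The same contrast was made with RAS present. There 1980 genes (9.72%) were called, 5.20% higher and 4.52% lower, and 1288 genes were called in the same direction in both, which is 48.7% of the calls with RAS deleted and 65.1% of those with RAS present; 4 were called in opposite directions. Of the 2644 calls, 95.1% had the same sign with RAS present, against 74.7% of all tested genes. The median log2 fold change with RAS present was 1.07 over the genes that rose with RAS deleted and -1.10 over those that fell, where the medians in the comparison that selected them were 1.59 and -1.66. The genes were selected on the RAS-deleted values, so the pairs of medians are not a like comparison. The difference itself was tested as an interaction. Without regard to replicate numbers 77 genes (0.378%) were called, 0.162% in the positive and 0.216% in the negative direction, 58 of them among the 2644. Same-numbered libraries of 1 ERF label correlated across RAS states in their deviations from the group means, at 0.296 to 0.530 in the 6 pairs. Differently numbered pairs were at -0.430 to 0.156. With the replicate number as a block within each ERF label, 458 of 17639 genes tested (2.60%) were called, 0.799% positive and 1.80% negative, and 222 of them were among the 2644. They included 67 of the 77, and leaving out each of the 12 libraries gave 309 to 532. The count without the block also depends on single libraries: with RAS deleted it was 34 and 35 without wild-type replicates 2 and 3 and 26 and 35 without labelled knockout replicates 2 and 3. With RAS present it was 40 and 159 without wild-type replicates 1 and 3 and 40 without labelled knockout replicate 2. DESeq2 called 147. The 1352 genes called only with RAS deleted are not shown by that count to differ between RAS states, and 34 of them were called for the interaction without the block and 134 with it.

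**Figure D5:**
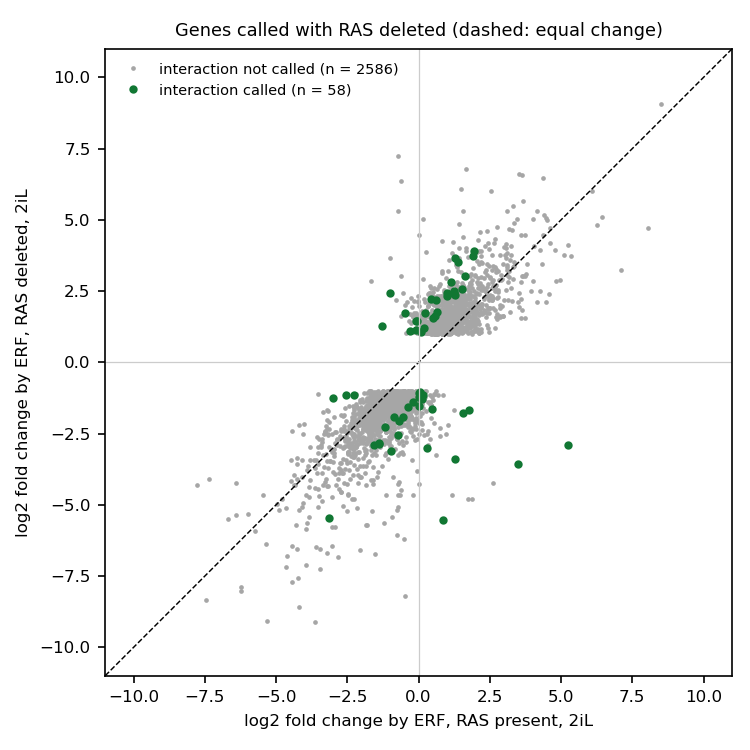
Fitted log2 fold change by the ERF label with RAS present (x) against RAS deleted (y) in 2iL for the 2644 genes called with RAS deleted; green marks the 58 also called for the interaction without the block and the dashed line is equal change. Most points lie in the lower left and upper right quadrants, as 95.1% have the same sign.

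Named next are the 6 most positive and 6 most negative interactions among called genes with at least 5 CPM. Tek, the angiopoietin receptor, stood lower by the label in the first setting: with RAS deleted it was 37.0, 37.4 and 38.9 CPM in wild type and 10.9, 9.18 and 9.84 CPM in the labelled knockout (-1.92 ± 0.10), and with RAS present 18.6, 22.3 and 22.5 CPM and 13.1, 14.3 and 15.8 CPM (-0.55 ± 0.10), a difference of -1.37 ± 0.14 (adjusted p = 3.56e-05). Gadd45b, a stress-induced growth arrest gene, was 25.7, 23.5 and 22.6 CPM and 45.4, 54.5 and 54.7 CPM with RAS deleted and 44.2, 33.1 and 32.1 CPM and 27.9, 27.8 and 32.6 CPM with RAS present, a difference of 1.42 ± 0.23 (adjusted p = 0.00381). It rose in the first setting and was not called in the second. Tgm2, a transglutaminase, went from 9.84, 7 and 9.97 CPM to 57.4, 60.1 and 69.6 CPM with RAS deleted and from 27.9, 19.2 and 16.4 CPM to 51.2, 46.6 and 43.9 CPM with RAS present (difference 1.65 ± 0.27, adjusted p = 0.00458). Slco4a1 differed by 1.97 ± 0.35 (adjusted p = 0.00608) and Zdhhc23, a palmitoyltransferase, by -1.45 ± 0.26 (adjusted p = 0.00856), in each case a larger change with RAS deleted. These 5 kept their interaction calls in all 20 alternative fits, the block included. Fignl2, Nuak1, Ffar3, Lrrc15, Dab2, Trpm1 and Ankrd45 lost theirs in 2 to 13 of the 20, but not with the block. Dppa3 (-1.002) and Spry4 (1.49) were called with the block (adjusted p = 0.00890 and 0.0190) and not without it (0.223 and 0.136), their changes being larger with RAS deleted. Lin28a (0.50, adjusted p = 0.193 with the block), Otx2 (0.43, 0.358) and Sp5 (-1.09, 0.142) were called in neither fit, which does not show that their changes are equal.

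The calls made with the block alone touched several lists, not all of which are given here. Of 13 primitive and visceral endoderm genes 3 had a negative difference with the block (1.80% of all genes) and none a positive one (0.799%). Of these, 1 was also called without the block. Of the 10 two-cell-like genes tested, which mark a rare state that resembles the cleaving embryo, 7 had a negative difference with the block (1.80% of all genes) and 0 without it. Zscan4f was 56.1, 38.1 and 36.0 CPM in wild type and 93.3, 105 and 38.4 CPM in the labelled knockout with RAS deleted, and 11.97, 6.07 and 5.39 CPM and 70.9, 83.2 and 29.1 CPM with RAS present, a difference of -2.11 ± 0.111 (SE, adjusted p = 1.04e-08). The label was called for Zscan4f with RAS present and not with RAS deleted, and its wild-type level was higher with RAS deleted than with RAS present in all 3 libraries of each. Zscan4 genes have close copies among which reads may be shared. Among 17 genes of the integrated stress response, Ddit3 (CHOP) and Atf3, both stress-induced transcription factors, had a positive difference with the block (0.799% of all genes). None had a negative one. Ddit3 was 4.41, 4.67 and 3.77 CPM and 17.7, 16.3 and 16.7 CPM with RAS deleted, and 25.1, 26.8 and 21.04 CPM and 23.02, 26.9 and 24.6 CPM with RAS present, where the groups overlapped (difference 1.95 with the block, adjusted p = 5.66e-08). Of 11 Wnt targets, Axin2, a feedback inhibitor, and Notum, which inactivates Wnt proteins, had a negative difference (1.80% of all genes). The differences were -1.20 and -1.07 (adjusted p = 8.12e-05 and 0.00126). Axin2 fell with RAS deleted from 30.3, 46.1 and 43.6 CPM to 20.3, 16.9 and 17.8 CPM, and with RAS present it was 9.35, 15 and 19.6 CPM and 14.8, 15.7 and 14.9 CPM.

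The ERF label was also compared in FA with RAS deleted, where 3385 genes (16.6%) were called, 8.13% higher and 8.48% lower. Of the 2644 calls in 2iL, 1106 were called in the same direction in FA and 106 in the opposite direction, and the interaction of label and medium was called for 2308 genes (11.3%; 5.74% positive and 5.59% negative), 871 of them (32.9%) among the 2644. Genes with opposite calls included Zfp57, which rose in 2iL (1.08) and fell in FA (-1.17; adjusted p of the difference 2.36e-11), Spp1 (1.10 and -1.24), and Sall2 and Grhl2, which fell in 2iL and rose in FA by 1.43 and 1.08. Dppa3 (-3.74), Lrrc15 (-6.26), Lin28b (3.69) and Bmp4 (1.19) kept their direction and were called in FA. Spry4 (0.86), Otx2 (-0.66) and Col4a1 (0.29) were not called there, and the adjusted p of the difference between media was 2.8e-05, 0.0546 and 0.00552.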

How the data were processed

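Total RNA was rRNA-depleted, made into NEBNext Ultra II Directional libraries and sequenced as 75-base pairs on a NextSeq instrument, per the labels' protocols. Per the submitters' processing notes, bcl2fastq 2.20.0, fastp 0.20.0 and Salmon were used with build mm10; the Salmon version is not given in the sources used here. The authors deposited Salmon estimated counts, TPM and effective length per gene in each library, and a matrix of those estimated counts rounded to whole numbers. The deposited TPM values were not used for tests. All 53607 gene symbols of the matrix entered; edgeR 4.0.16 (R 4.3.3, limma 3.58.1) kept 20372 with filterByExpr over 8 groups, scaled the 23 libraries by TMM and fitted 1 robust quasi-likelihood model. Fitting all groups gives a shared estimate of the spread. Calls needed 2-fold and an adjusted p (Benjamini-Hochberg) under 0.05, and log2 fold changes are fitted values. Interactions were contrasts of the same model. The test of the ERF comparison was also run on counts simulated from the fitted spread. Those counts held no effects shared among libraries, so that run does not bear on such effects.

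Named genes were the targeted genes, the 12 largest rises and falls with separate CPM ranges and at least 5 CPM in the higher group, the 8 largest rises and falls in CPM, the 6 most positive and negative interactions, and list members with the smallest adjusted p. Predicted genes, pseudogenes and small RNAs were passed over. A further targeted gene is not reported here. The members and gene lists were chosen with earlier results of these data known. Promoters came from a RefSeq table (GRCm38.p6), matched by symbol. Pairs of replicates in the 6 libraries differed by 3.04 to 7.04 chi-square per degree of freedom, so none were alike within sampling noise. Intervals on counts are exact 95% intervals and, like the 3-count floor, cover counting error only. Alternatives were DESeq2 1.42.0, its size factors in edgeR, other filters, effective-length offsets, removal of the most abundant gene, only the compared groups, a replicate block, no 2-fold minimum and leaving out each library; leaving out chromosome 8 genes, and a replicate block within each ERF label for the interactions, were added after seeing the data. The labels do not say what a replicate number shares, and the block rests on the deviations of same-numbered libraries of 1 ERF label (6 pairs each). Across RAS states these correlated at 0.296 to 0.530, against -0.430 to 0.156 for differently numbered pairs. Across media the same-numbered pairs were at 0.163 to 0.376 and the differently numbered ones at -0.34 to 0.237. The ranges across media overlap, so the number links libraries less clearly there.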

Additional observations from a re-analysis of the deposited data

Results flagged for a closer look

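Without regard to replicate numbers, the effect of the ERF label was called different between RAS states in 2iL for 77 genes. Between 2iL and FA with RAS deleted it was called different for 2308 genes, each by a test of the difference in edgeR. With the replicate number as a block within each ERF label the counts were 458 and 2328. The 77 became 26 to 159 when single libraries were left out. The differences below are from the fit without the block. Of the genes named, the difference between RAS states (RAS deleted minus RAS present, log2) was 1.97 for Slco4a1, 1.84 for Fignl2, 1.75 for Ffar3, 1.65 for Tgm2, 1.57 for Nuak1, 1.42 for Gadd45b, 1.09 for Id2, 1.06 for Socs3 and 1.04 for Hist1h2bq. It was -2.33 for Lrrc15, -2.07 for Dab2, -1.73 for Trpm1, -1.45 for Ankrd45, -1.45 for Zdhhc23 and -1.37 for Tek. Socs3 is the LIF feedback inhibitor of the report: it was 30.3, 34.2 and 33.7 CPM and 181, 205 and 200.3 CPM with RAS deleted, against 53.5, 49.2 and 47.9 CPM and 155, 141 and 134 CPM with RAS present, and its interaction call was lost in 10 of 20 alternatives. Those of Id2 and Hist1h2bq were lost in 9 and 6 of the 20; all 3 were called with the replicate block.

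There were 10 named genes called in opposite directions in the 2 media. The difference between media (2iL minus FA, log2) was 3.08 for Gadd45b, 3.00 for Hnf4a, 2.34 for Spp1 and 2.24 for Zfp57, which rose in 2iL and fell in FA. It was -2.30 for Grhl2, -2.49 for Sall2 and -2.57 for Col1a1, which fell in 2iL and rose in FA. It was -6.13 for Cdx2, -7.44 for Oasl2 and -8.99 for Pdzrn4, where a group near 0 counts makes the fitted value depend on the prior count.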

How the results depend on the processing

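Of 143 called genes that were named or listed, 118 were called under every alternative run for them and all 143 kept their sign. With RAS deleted the 2644 calls became 7975 with no 2-fold minimum, 2177 in the 6 libraries alone and 2305 to 2620 without each library. With RAS present 1980 became 5668 with no 2-fold minimum. The 77 interaction calls between RAS states became 320 with no 2-fold minimum, 147 under DESeq2, 457 with no filter on low counts, 46 with effective-length offsets, 26 to 159 without each library, 458 with the replicate number as a block within each ERF label and 309 to 532 with that block and without each library. The 2308 between media became 5375 with no 2-fold minimum and 2328 with that block. The share of calls with the same sign with RAS present, 95.1%, was 99.7% over genes called in both and 74.7% over all genes tested. The motif share of all promoters, 8.86%, was 14.9% for the shorter CCGGAA. For the interaction counts the cause was not tested. Replicate numbers did not pair knockout with wild type: deviations of same-numbered libraries correlated at 0.12, -0.04 and 0.14, and only 2 of the 3 were above 0.1. The fit with the replicate number as a block made 2160 calls, against 2177 without it in the same 6 libraries; the block fit ended the calls of Col4a2 (2.46, adjusted p 0.0568) and Cdh2 (-1.12, adjusted p 0.0556). Depth limits genes under 1 CPM, which rest on few counts a library.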

Other observations

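By annotated class, 13.3% of tested protein-coding genes were called, 16.1% of long intergenic RNAs and 18.2% of antisense RNAs, of which 47 rose and 41 fell among 483 tested. Overlapping transcripts can share reads, so antisense values are uncertain where the counting did not use strand, which is not given in the sources used here.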
